A study of Mus musculus with 6 samples.

Results

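A set of 10 genes that write, edit or erase ubiquitin chains in NF-kappaB signalling was followed in GC-1 spg cells, an immortalised mouse line derived from spermatogonia. The genes were chosen by symbol from the deposited table of 57180 gene rows, and each symbol matched 1 protein-coding row. They are Tnfaip3, which encodes A20, its partners Tnip1 and Tnip2, the deubiquitinase genes Cyld and Otulin, the cIAP ligase genes Birc2 and Birc3, and Rnf31, Rbck1 and Sharpin, which encode the linear ubiquitin chain assembly complex LUBAC. All 10 passed the default edgeR filter on low counts.

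Ubiquitin chains act as scaffolds in this pathway. After a TNF, IL-1 or IL-17 type receptor is engaged, cIAP and TRAF ligases and LUBAC attach lysine-linked and linear chains to adaptors and kinases, and these chains recruit the TAK1 and IKK kinases that release NF-kappaB. A20, CYLD and OTULIN remove or edit the chains and so restrain the response. Tnfaip3 and Birc3 are textbook NF-kappaB target genes, which makes them feedback components as well as regulators.

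The series compared 3 libraries titled Ov_SNHG1, with the genotype given as SNHG1 overexpression, and 3 titled Vector, with the genotype given as vector control. All were poly(A)-selected mRNA libraries of GC-1 spg cells taken 24 hours after transfection, and all 6 also carry the label non-obstructive azoospermia under treatment, with no further detail. The labels used here describe neither the construct nor the allele it carried. They also do not say whether replicates were separate cultures, so the p-values reflect variation among 6 libraries that could be purely technical. Because the libraries are bulk RNA of a culture, fewer cells of a kind and less RNA per cell cannot be told apart.

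Total counts were 15521900 to 21095427 per library. The targeted gene did not pass the test between the groups: Snhg1 had 467, 555 and 487 counts in the libraries labelled overexpression and 464, 402 and 385 in the vector libraries. Scaled for depth to CPM (the count relative to the library's scaled total) these are 24.0, 26.4 and 25.3 against 22.1, 25.9 and 20.9 CPM, so the groups overlap (log2 fold change 0.14 ± 0.10 (SE), edgeR adjusted p = 0.52). The groups are therefore called the labelled and the vector libraries, and every direction below is that of the labels. Labelled replicate 1 stood apart from its group: its score on the second principal component, which held 18.9% of the variance, was 22.7, and the other scores were -6.37 and -10.4. The germ cell label was not borne out by most markers, since 11 of 14 germ cell genes had under 10 counts in all libraries together and Ddx4, Kit, Nanos2, Sall4 and Zbtb16 had 0. Of the rest, Gfra1 had 252 counts in all, at 1.48 to 2.72 CPM, Dnd1 had 47 and Sycp3 had 26. Of 6 Sertoli markers, Rhox5 stood at 510 to 641 CPM and Sox9 at 52.3 to 68.6 CPM, while Wt1 and Cldn11 had 0 counts. Of 12 macrophage and blood markers, Tyrobp had 0 counts and Ptprc stayed at or under 0.427 CPM, while the summed level was 42.4 to 48.3 CPM in the labelled and 33.8 to 34.9 CPM in the vector libraries. Cd14 carried most of that difference, at 22.01 to 26.1 against 13.7 to 14.8 CPM. Cd68 was also higher in every labelled library, at 3.69 to 4.04 against 2.17 to 2.71 CPM. Lyz2 was at 14.5 to 16.6 CPM in both groups, and Csf1r went the other way, at 0.949 to 1.14 against 1.35 to 1.52 CPM. The summed level of 6 fibroblast and peritubular markers was 17549 to 18284 CPM in the labelled and 20790 to 22121 CPM in the vector libraries. Col1a1 and Col1a2 made up nearly all of it, and Pdgfra of the same list went the other way, at 267 to 310 CPM in the labelled and 202 to 217 CPM in the vector libraries. The rest of that list was low: Acta2 stood at 6.26 to 9.49 CPM, and Myh11 and Dcn had 17 and 20 counts in all libraries together. The part of these marker differences in the results below was not tested.

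The A20 gene was the 1 member of 10 that rose past the threshold, to about double its vector level. Its expression stayed low even so, and the other 9 did not pass. Birc3 and Tnip1 had the next largest differences, 0.71 and 0.36 on the log2 scale, and the LUBAC genes, Otulin, Birc2 and Tnip2 lay within 0.14 of zero on either side. The test was edgeR's quasi-likelihood F test with Benjamini-Hochberg adjustment over all 14605 tested genes, of which 2.40% passed in either direction (1.54% higher and 0.856% lower). An unadjusted p of at most 0.05 was reached by 5 of the 10, against 17.0% of all tested genes. The median log2 fold change of the 10 was 0.095, against 0.007 over all tested genes, and the median size regardless of sign was 0.13 in both. In 4 members every labelled library lay above every vector library and in 1 every labelled library lay below, against 11.4% and 12.3% of all tested genes.

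**Figure D1:**
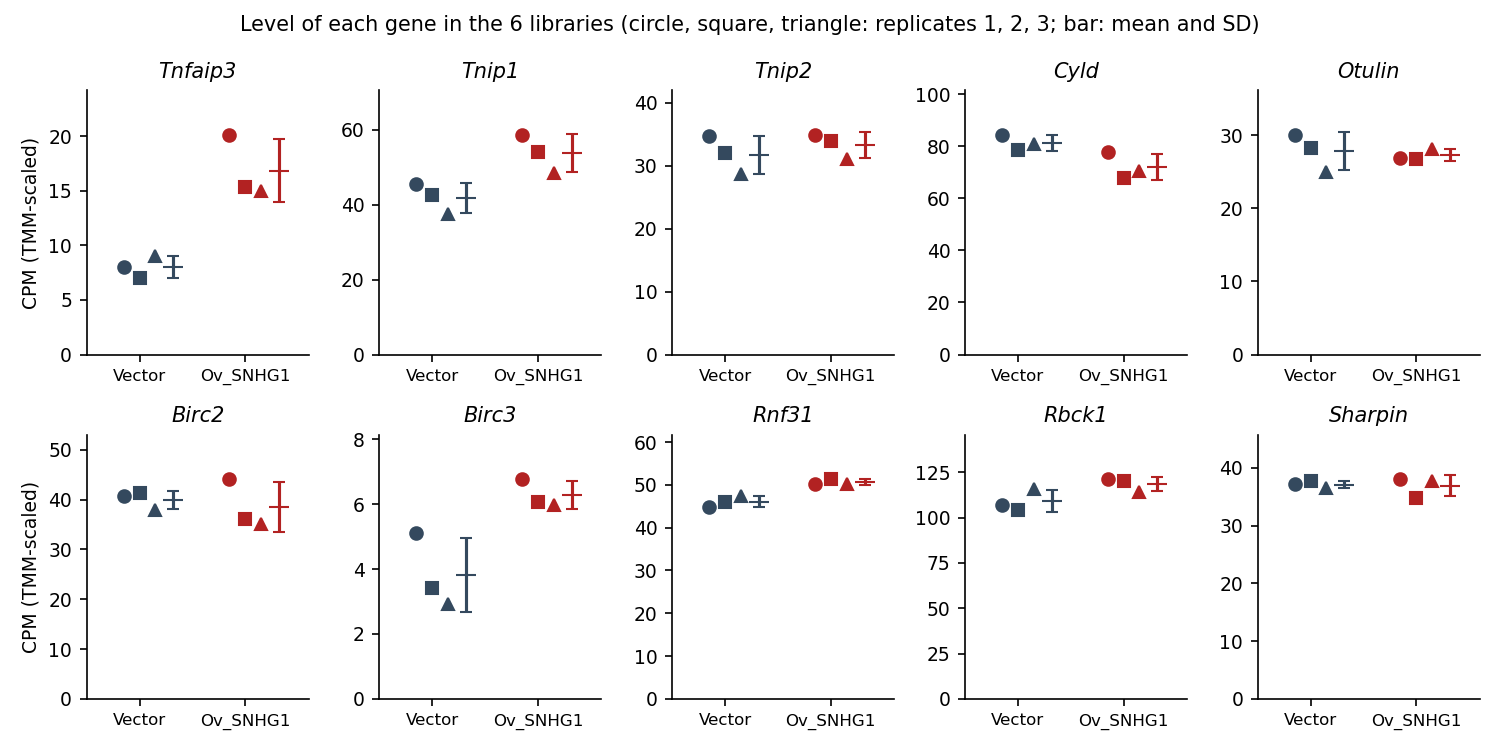
Level of each of the 10 genes in every library, in CPM scaled by TMM factors, with a separate axis from 0 for each gene. Points are libraries and bars are the mean and SD of 3. Tnfaip3, Tnip1, Birc3 and Rnf31 are higher in all labelled than in all vector libraries, Cyld is lower, and the groups overlap in the other 5.

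A20 is an ubiquitin-editing enzyme that trims chains from adaptors such as RIPK1 and blocks further signalling. Tnfaip3 (ENSMUSG00000019850, chromosome 10, 18876658 to 18891405 on the deposited coordinates, whose build is not named) had 392, 323 and 288 counts in the labelled libraries and 168, 109 and 166 in the vector libraries. That is 20.1, 15.3 and 14.9 CPM against 8.004, 7.03 and 9.01 CPM. The lowest labelled library was above the highest vector library, and labelled replicate 1 was the highest of all. The group means were 16.8 ± 2.89 and 8.02 ± 0.988 CPM (SD, n = 3). The log2 fold change was 1.07 ± 0.15 (SE), a 2.09-fold rise with a 95% interval of 1.64 to 2.68 (edgeR adjusted p = 0.0139), which ranked 104 from the top of 14605 genes. The spread among labelled libraries (a coefficient of variation of 17.2%) was wider than the 5.47% that counting alone would give. Without labelled replicate 1 the log2 fold change was 0.91 and the call held (edgeR adjusted p = 0.0145). The call was lost without vector replicate 1 (log2 fold change 1.06, adjusted p = 0.067) and without vector replicate 2 (0.98, adjusted p = 0.0607). Over 15 alternatives the adjusted p lay between 1.52e-07 and 0.067.

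The genes most like Tnfaip3 across the 6 libraries, by Pearson's r of log2 CPM, were Bcr, Zfp36l1 and Apol9a, with r of 0.998, 0.998 and 0.997. Candidates were genes with a mean of at least 20 counts, without Gm-numbered, Rik and clone-style symbols. Bcr encodes a GTPase regulator and Zfp36l1 an mRNA decay factor. Their own log2 fold changes were 0.15, 0.66 and 0.27, and of the 3 only Zfp36l1 passed (edgeR adjusted p = 0.0141, against 0.186 and 0.0951). These r values describe 6 points that share the difference between the groups.

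TNIP1 and TNIP2, also named ABIN proteins, bind ubiquitin chains and bring A20 to its substrates. Tnip1 (ENSMUSG00000020400, chromosome 11, 54801611 to 54853743) stood at 58.8, 54.0 and 48.5 CPM in the labelled libraries and at 45.5, 42.7 and 37.6 CPM in the vector libraries. The groups did not overlap, although the lowest labelled and highest vector libraries lay close together. The log2 fold change was 0.36 ± 0.10 (SE), 1.28-fold with a 95% interval of 1.10 to 1.5, and did not pass (edgeR adjusted p = 0.118). DESeq2 called it (adjusted p = 0.0384), and its adjusted p lay between 0.0384 and 0.293 across alternatives. Tnip2 (ENSMUSG00000059866, chromosome 5, 34653431 to 34671335) stood at 35.0, 34.0 and 31.1 CPM against 34.7, 32.01 and 28.7 CPM, with overlapping groups. Its log2 fold change of 0.069 ± 0.091 (SE) had a 95% interval of -0.14 to 0.28. The third ABIN gene, Tnip3, had 2 counts in 1 labelled library and 0 in the other five.

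CYLD removes K63-linked and linear chains, and OTULIN cuts linear chains only. Cyld (ENSMUSG00000036712, chromosome 8, 89423675 to 89478573) was the 1 member with every labelled library below every vector library, at 77.7, 67.8 and 70.5 CPM against 84.5, 78.4 and 80.8 CPM. The gap between the groups was small, since labelled replicate 1 reached 77.7 and vector replicate 2 was at 78.4. The log2 fold change was -0.17 ± 0.07 (SE), 0.886-fold with a 95% interval of 0.794 to 0.989, and did not pass (edgeR adjusted p = 0.252). It was -0.23 without labelled replicate 1 (adjusted p = 0.0774) and -0.091 with trends of GC content and transcript length removed. Otulin (ENSMUSG00000046034, chromosome 15, 27542721 to 27630779) stood at 26.9, 26.8 and 28.2 CPM against 30.1, 28.3 and 25.0 CPM. The vector libraries spanned the labelled ones, and the estimated difference was -0.028 ± 0.088 (log2, SE), with -0.23 and 0.17 as its 95% bounds. Otulin shares 52275 bp of its locus with Ank, which GENCODE M21 places on the opposite strand and which had 5886 to 8484 counts per library. Ank had a log2 fold change of -0.26 and did not pass (edgeR adjusted p = 0.0834). No exonic base is common to Otulin and Ank in that annotation, but whether reads were counted by strand is not stated in the labels used here.

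The ratio of Tnfaip3 to Cyld sets these editors against each other within each library. The log2 ratio of their counts was -1.95, -2.14 and -2.24 in the labelled libraries and -3.40, -3.47 and -3.16 in the vector libraries. Every labelled library was above every vector library, with a difference of 1.23 between the means. The exact two-sided permutation test gave p = 0.1, the smallest that 3 against 3 libraries allow, so the design cannot reach 0.05 here, and 2 such ratios were computed. Tnfaip3 was higher and Cyld lower in every labelled library, so the ratio had to separate and its p was fixed in advance. The log2 fold changes behind it were 1.07 for Tnfaip3, which passed, and -0.17 for Cyld, which did not. The members were also chosen with earlier results known, so this p only describes the separation.

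**Figure D2:**
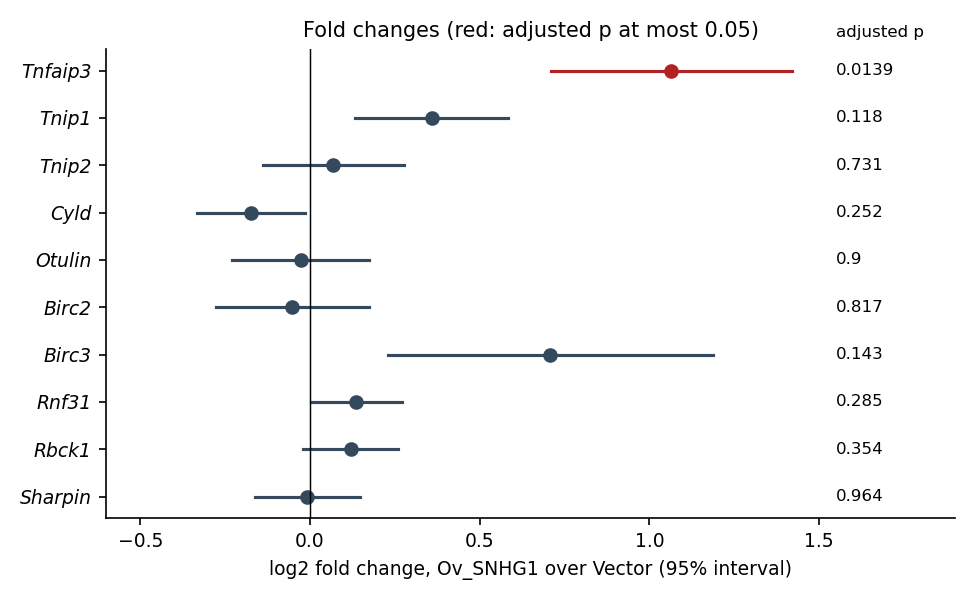
Log2 fold change of each gene, labelled over vector libraries, on the x axis with its 95% interval, and the edgeR adjusted p at the right. Tnfaip3 at 1.07 passed. The intervals of Birc3, Tnip1, Rnf31 and Cyld exclude 0 but their adjusted p values were 0.143, 0.118, 0.285 and 0.252.

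Promoter sequence is shown for the 3 genes with a match to the NF-kappaB consensus (kappaB) near the start site and for Birc3, whose level differed most after Tnfaip3 and whose window held none. RefSeq promoter windows of GRCm38.p6, 250 bases before to 50 after the start, were at hand for 9 of the 10 genes, in 12 windows. Of the 12 windows, 3, each of another gene, had at least 1 match to the kappaB consensus on either strand, and 4.51% of all 32851 windows had one. Sequences run 5′ to 3′ on the gene's strand, and capitals mark bases that match the consensus on either strand. The windows are chr10:19015361-19015660 (minus strand) for the first Tnfaip3 start, chr11:54962891-54963190 (minus) for Tnip1, chr8:88696778-88697077 (plus) for Cyld and chr9:7873121-7873420 (minus) for Birc3.
Tnfaip3: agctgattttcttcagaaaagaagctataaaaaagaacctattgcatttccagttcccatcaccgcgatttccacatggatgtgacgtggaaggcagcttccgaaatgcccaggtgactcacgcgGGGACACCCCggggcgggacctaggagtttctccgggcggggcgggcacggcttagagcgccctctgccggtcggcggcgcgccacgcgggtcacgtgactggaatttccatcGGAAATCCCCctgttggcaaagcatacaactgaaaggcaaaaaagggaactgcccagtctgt
Tnip1: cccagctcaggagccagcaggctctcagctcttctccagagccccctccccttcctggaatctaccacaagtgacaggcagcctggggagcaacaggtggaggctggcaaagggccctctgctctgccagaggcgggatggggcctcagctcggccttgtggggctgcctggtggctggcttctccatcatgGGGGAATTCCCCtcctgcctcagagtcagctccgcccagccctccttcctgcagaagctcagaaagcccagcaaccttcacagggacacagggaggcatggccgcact
Cyld: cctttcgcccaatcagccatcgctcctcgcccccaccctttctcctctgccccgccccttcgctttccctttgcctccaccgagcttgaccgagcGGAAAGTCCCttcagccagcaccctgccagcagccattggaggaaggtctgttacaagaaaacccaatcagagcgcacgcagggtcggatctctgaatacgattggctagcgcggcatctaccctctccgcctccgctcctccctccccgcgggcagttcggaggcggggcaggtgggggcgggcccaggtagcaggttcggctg
Birc3: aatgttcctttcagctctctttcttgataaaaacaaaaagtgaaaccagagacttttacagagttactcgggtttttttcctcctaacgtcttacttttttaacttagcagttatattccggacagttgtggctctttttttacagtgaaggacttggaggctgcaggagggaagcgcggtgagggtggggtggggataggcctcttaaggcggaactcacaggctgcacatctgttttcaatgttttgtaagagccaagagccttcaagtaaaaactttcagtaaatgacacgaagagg

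In Tnfaip3 the matches were GGGACACCCC at -125 to -116 and, on the minus strand of the window, GGGGATTTCC at -12 to -3, counting the first base of the transcript as 1. In Tnip1 the capitals span overlapping matches at -58 to -47, among them GGGGAATTCC and GGGAATTCCC. In Cyld the match was GGGACTTTCC on the minus strand at -155 to -146. A match is a description of letters, not a site of binding. The second Tnfaip3 window and those of Tnip2, Otulin, Birc2, Rnf31 and Rbck1 had no consensus match.

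The cIAP proteins are RING ligases recruited by TRAF2 that ubiquitinate RIPK1 and, in resting cells, the kinase NIK. Birc3 (ENSMUSG00000032000, chromosome 9, 7848700 to 7873187), which encodes cIAP2, had 132, 128 and 115 counts in the labelled libraries and 107, 53 and 54 in the vector libraries. On the CPM scale this is 6.78, 6.08 and 5.97 against 5.10, 3.42 and 2.93. The groups did not overlap, and vector replicate 1 stood nearer to the labelled libraries than to the other vector libraries. The log2 fold change was 0.71 ± 0.21 (SE), 1.63-fold with a 95% interval of 1.17 to 2.28, and did not pass (edgeR adjusted p = 0.143). Without vector replicate 1 it was 0.98 (adjusted p = 0.0595), and over all alternatives the adjusted p ran from 0.0595 to 0.348. With 98.2 counts per library on average it was the member with the fewest counts, and counting alone gives a coefficient of variation of 11.8% in the vector group, where 29.8% was observed.

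Birc2, the neighbour of Birc3 on chromosome 9 (ENSMUSG00000057367, 7818228 to 7837065), encodes cIAP1. It stood at 44.2, 36.2 and 35.2 CPM in the labelled libraries and at 40.7, 41.2 and 37.9 CPM in the vector libraries. The groups overlapped because labelled replicate 1 was the highest library and the other two labelled ones the lowest, and the estimated difference was -0.052 ± 0.098 (log2, SE), with -0.28 and 0.17 as its 95% bounds. The Birc3 to Birc2 log2 ratio was -2.70, -2.57 and -2.55 in the labelled and -2.99, -3.58 and -3.68 in the vector libraries. It was higher in every labelled library, by 0.81 on average (exact two-sided permutation test, p = 0.1, the smallest possible). The longest transcripts of both genes in GENCODE M21 share 0 stretches of 50 bases, but 2.07% of such stretches in that of Birc2 occur in Birc3, through its other transcripts, or in Gm18700 or Gm7019. For Birc3, 7.34% occur in other annotated genes, and Birc2 is not among them. Reads in the shared stretches of either gene are uncertain. Any split between Birc2 and Birc3 concerns the stretches of Birc2 that occur in Birc3.

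LUBAC is the ligase that makes linear chains: HOIP, from Rnf31, is the catalytic subunit, and HOIL-1, from Rbck1, and SHARPIN stabilise it. Rnf31 (ENSMUSG00000047098, chromosome 14, 55829165 to 55841150) stood at 50.3, 51.4 and 50.3 CPM in the labelled libraries and at 44.9, 46.1 and 47.3 CPM in the vector libraries. The groups did not overlap, with a narrow spread in each, and the log2 fold change of 0.14 ± 0.06 (SE), 1.10-fold, did not pass (edgeR adjusted p = 0.285). A stretch of 123 bp of its locus, all exonic, also belongs to Irf9 on the same strand, which had a log2 fold change of 0.24 (edgeR adjusted p = 0.375). Rbck1 (ENSMUSG00000027466, chromosome 2, 152158254 to 152174573) stood at 121, 120 and 114 CPM against 107, 104 and 116 CPM. Vector replicate 3 lay inside the labelled range, and the log2 fold change was 0.12 ± 0.06 (SE; edgeR adjusted p = 0.354). With GC content and length trends removed it was 0.025. Sharpin (ENSMUSG00000022552, chromosome 15, 76231240 to 76235311) stood at 38.1, 34.8 and 37.8 CPM against 37.2, 37.7 and 36.5 CPM. The difference was -0.0078 ± 0.067 (log2, SE), and its 95% bounds were 0.894-fold and 1.11-fold. With GC content and length trends removed it was -0.096, and in that fit Otulin was at -0.12 and Birc2 at -0.0050, none of them called.

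The share of each LUBAC subunit in the summed RNA level overlapped between the groups. Per kilobase of annotated exon, Rbck1 made up 57.1 to 59.1% of the 3 subunits together in the labelled and 55.8 to 58.6% in the vector libraries. Rnf31 made up 19.4 to 20.3% and 19.2 to 19.8%, and Sharpin 20.6 to 22.8% and 22.2 to 24.4%. Otulin, which opposes LUBAC, equalled 35.1 to 38.3% of the summed subunits in the labelled and 34.3 to 43.5% in the vector libraries, again with overlap.

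Between genes, levels were compared per length. In the vector libraries Rbck1 was the highest of the 10 at 23.7 ± 1.31 CPM per kilobase of exon (SD, n = 3), followed by Otulin at 16.4 ± 1.54, Tnip1 at 11.9 ± 1.13 and Tnip2 at 11.8 ± 1.12. Sharpin at 9.73 ± 0.16, Birc2 at 8.72 ± 0.393, Rnf31 at 8.04 ± 0.209 and Cyld at 6.46 ± 0.245 came next on the same scale. Tnfaip3 at 1.11 ± 0.137 and Birc3 at 0.762 ± 0.227 were the lowest. Tnfaip3 and Birc3 also had the largest fold changes, although Birc3 did not pass. Tnip1, with the next largest, ranked 3 in level. Tnfaip3 in the labelled libraries, at 2.33 ± 0.4 CPM per kilobase, was still below the other members except Birc3, at 1.25 ± 0.088. Among neighbours in this order, the vector ranges overlapped for Tnip1 and Tnip2 and for Tnfaip3 and Birc3. In the labelled libraries they overlapped for Otulin and Tnip1 and for Rnf31 and Birc2, and Tnfaip3 no longer overlapped Birc3.

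The authors' FPKM values gave the same top pair and bottom pair but another order between them. In the vector libraries the deposited FPKM was 17.0 ± 0.95 for Rbck1, 12.96 ± 1.2 for Otulin, 3.64 ± 0.0599 for Sharpin, 0.573 ± 0.0706 for Tnfaip3 and 0.552 ± 0.163 for Birc3 (SD, n = 3). Sharpin ranked 8 there, against 5 per kilobase of annotated exon. The gene length that a count and its FPKM imply was 1.26 times the annotated exon length for Otulin and 2.66 times for Sharpin, with the other 8 members in between. Differences in level between genes therefore depend on the length used. Ratios between groups within a gene do not, since the same length divides every library. Removing GC content and length trends is a separate adjustment, and it did shift some fold changes, as given above.

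**Figure D3:**
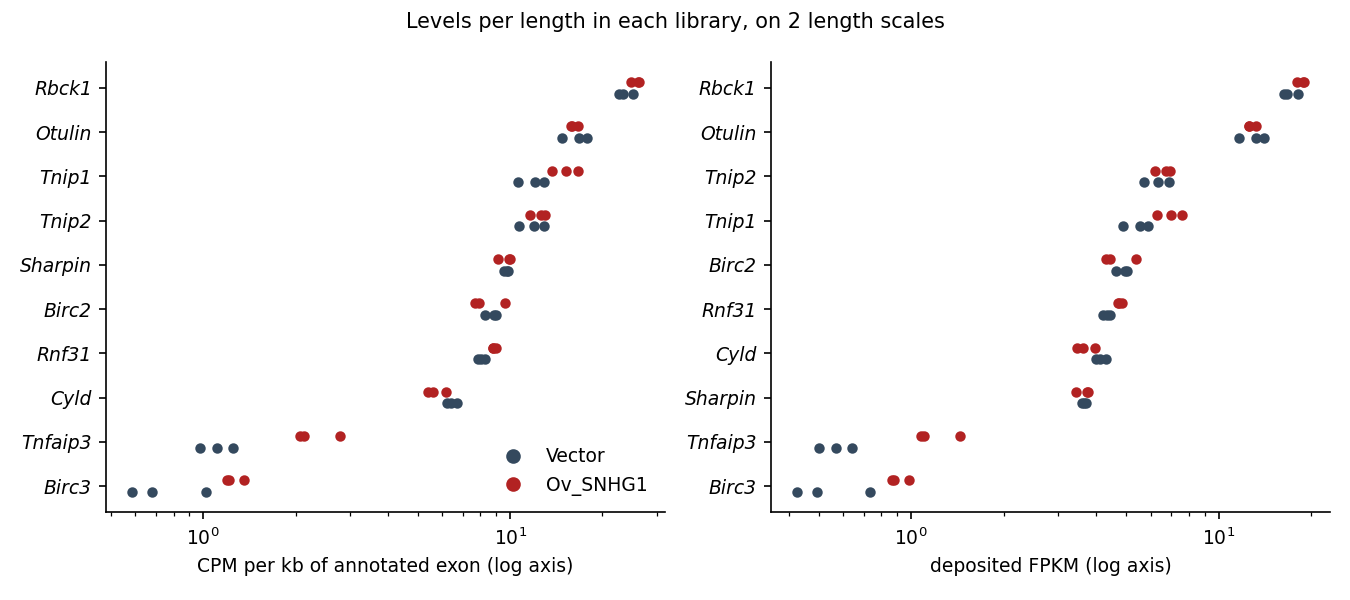
Level of each gene per length in every library, on log axes: CPM per kilobase of GENCODE M21 exon at the left and the deposited FPKM at the right. Points are libraries, and genes are ordered by their vector mean. Rbck1 and Otulin are highest and Tnfaip3 and Birc3 lowest on both scales, and Sharpin moves between them.

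The rest of the pathway was described with 6 lists of 69 names, 68 of them in the table and 66 tested. Of the 66, 2 rose and 0 fell, which is 3.03% against 2.40% of all tested genes. The median log2 fold change of the 66 was 0.019, and 12 of the 66 had an unadjusted p of at most 0.05, against 17.0% of all tested genes. The genes that rose were Spata2, in the list of A20 cofactors and ubiquitin readers, and Traf2, in the list of receptor complex substrates and kinases. Both encode direct partners of the enzymes above: SPATA2 bridges CYLD to LUBAC, and TRAF2 recruits the cIAP ligases.

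**Figure D4:**
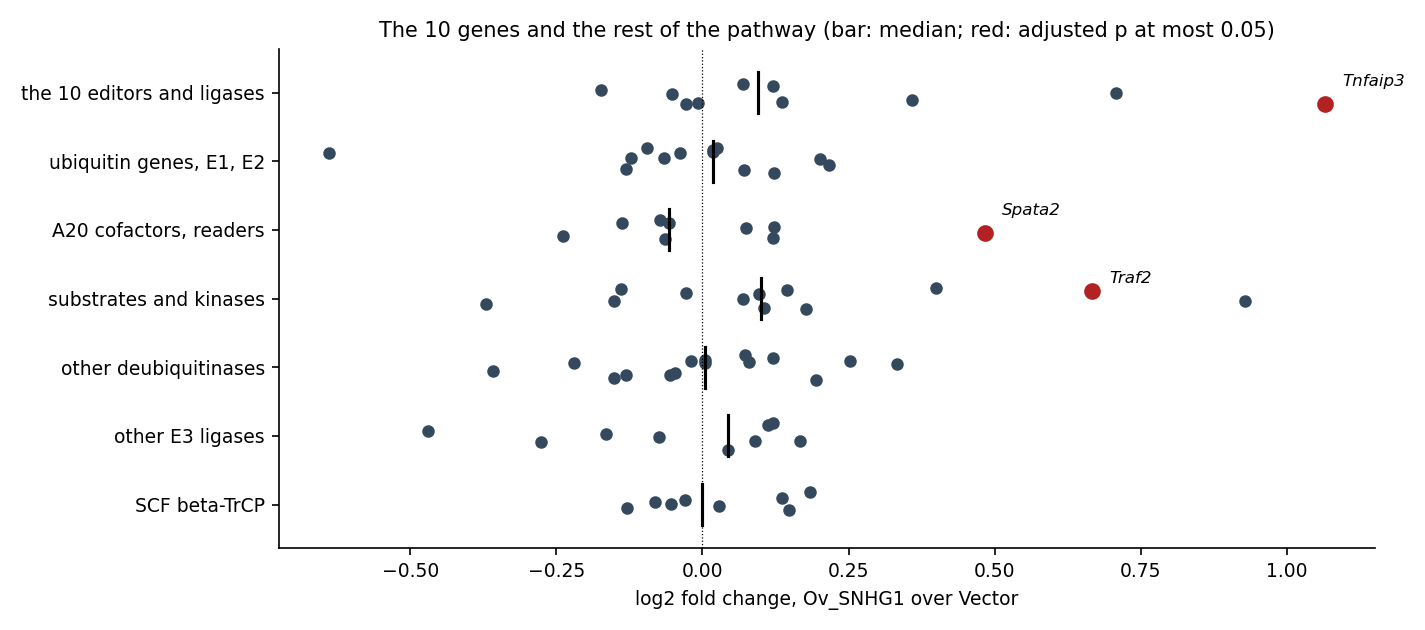
Log2 fold change, labelled over vector libraries, on the x axis for the 10 genes (top row) and for the tested members of 6 pathway lists. Points are genes and vertical bars are medians. Tnfaip3 at 1.07, Traf2 at 0.67 and Spata2 at 0.48 passed the threshold and are drawn larger in red.

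Spata2 had 61.9, 57.6 and 59.3 CPM in the labelled libraries and 46.1, 40.4 and 41.4 CPM in the vector libraries. The groups were well apart, and the log2 fold change was 0.48 ± 0.07 (SE), 1.40-fold (edgeR adjusted p = 0.0154). The call was lost without labelled replicate 2 and without vector replicates 2 and 3 (edgeR adjusted p = 0.0511, 0.0678 and 0.0699). Traf2 had 65.0, 64.7 and 61.9 CPM against 42.8, 35.5 and 42.3 CPM, also with the groups apart, and its log2 fold change of 0.67 ± 0.08 (SE) kept its call in all 15 alternatives (edgeR adjusted p = 0.00687, at most 0.0332 over the alternatives).

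The other members of those 2 lists did not pass. Among the 9 tested A20 cofactors and readers the median log2 fold change was -0.058, with the 8 others between -0.24 and 0.12. Of the 9, 2 had an unadjusted p of at most 0.05, against 17.0% of all tested genes: Spata2 and Itch, which is named here after its values were seen. Itch stood at 67.5, 62.6 and 62.9 CPM in the labelled and 75.6, 80.3 and 71.9 CPM in the vector libraries. It did not pass (edgeR adjusted p = 0.121). Among the 12 substrates and kinases the median was 0.10, with the 11 others between -0.37 and 0.93. Of the 12, 4 had an unadjusted p of at most 0.05, against 17.0% of all tested genes: Traf2 and 3 that did not pass, which are named here after their values were seen. Traf1, which pairs with TRAF2, stood at 4.98, 3.52 and 2.80 CPM against 1.76, 2.07 and 2.12 CPM, and Traf3 at 23.3, 23.5 and 22.3 CPM against 17.9, 18.5 and 16.01 CPM. Map3k14, which encodes NIK, stood at 32.9, 33.1 and 31.5 CPM against 40.6, 38.6 and 46.8 CPM. None of the 3 passed (edgeR adjusted p = 0.103, 0.0636 and 0.0735). Their groups do not overlap, which holds for 23.7% of all tested genes.

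No member of the remaining 4 lists passed edgeR. Their counts at an unadjusted p of at most 0.05 are to be set beside 17.0% of all tested genes. Among 13 genes for ubiquitin itself, its E1 and its E2 enzymes, 2 had an unadjusted p of at most 0.05 and the median was 0.018. The polyubiquitin gene Ubb, the member with the smallest p, stood at 726, 718 and 757 CPM against 608, 643 and 663 CPM (edgeR adjusted p = 0.11). Of 15 other deubiquitinases, 0 had an unadjusted p of at most 0.05, and the median was 0.0047. Zranb1, which encodes the deubiquitinase TRABID, was the nearest at -0.15 ± 0.07 (log2, SE; edgeR adjusted p = 0.295). Of 9 other tested E3 ligases, 4 had an unadjusted p of at most 0.05. The median was 0.044, and single genes lay between -0.47 and 0.17. Peli1, the Pellino ligase of IL-1 receptor signalling, had the smallest p and was at -0.28 ± 0.10 (log2, SE; edgeR adjusted p = 0.222). Of 8 genes of the SCF beta-TrCP ligase and its NEDD8 activation, which marks IkappaB for degradation, 0 had an unadjusted p of at most 0.05 and the median was -0.00078. The NEDD8-conjugating enzyme gene Ube2m was at 0.15 ± 0.07 (log2, SE; edgeR adjusted p = 0.309).

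**Figure D5:**
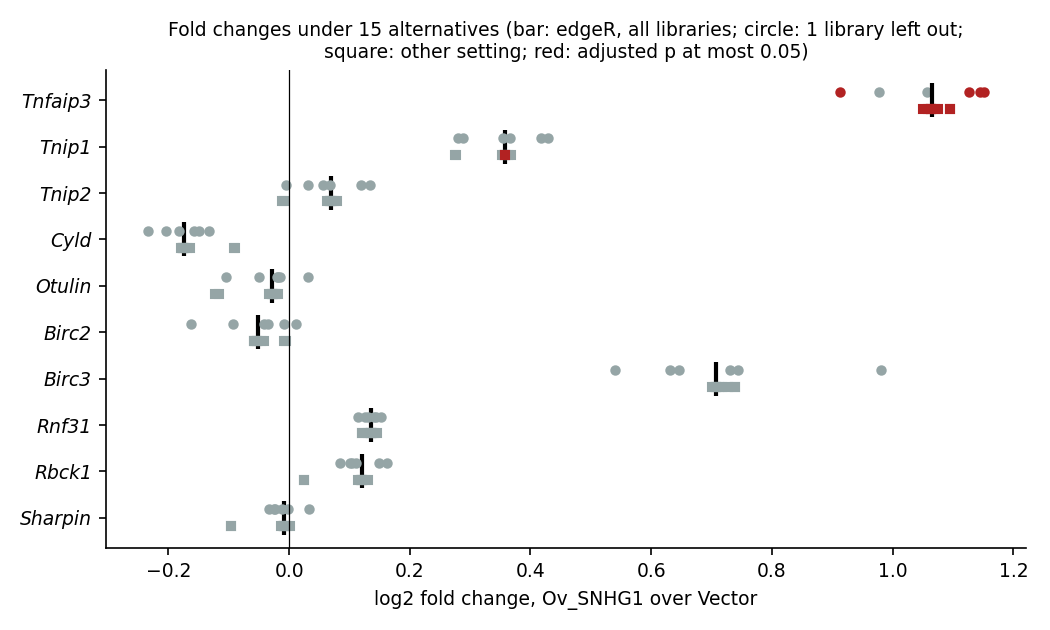
Log2 fold change of the 10 genes under 15 alternatives, on the x axis. Bars are edgeR with all libraries, circles leave out 1 library, squares are other settings, and red marks an adjusted p of at most 0.05. Tnfaip3 stayed between 0.91 and 1.15, Birc3 between 0.54 and 0.98, and Tnip1 was called in 1 alternative.

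Across the alternatives Tnfaip3, Birc3, Tnip1, Rnf31 and Rbck1 stayed above zero and Cyld below it in all 15. Tnip2, Otulin, Birc2 and Sharpin changed sign in at least 1. The smallest adjusted p among those that changed sign was 0.23, for Birc2 without labelled replicate 1.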

How the data were processed

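Gene expression was measured in 6 poly(A)-selected libraries of GC-1 spg cells, 3 per group, assigned from their titles. The authors deposited 1 table with whole-number counts and FPKM values per gene and library. The tools named per the submitters' processing notes are StringTie, HISAT2 and SAMtools 1.3.1, and the build named there is the human GRCh38, whereas the rows carry mouse Ensembl identifiers. The counting tool, how it treated strand and the build behind the deposited coordinates are not stated there. No per-sample column was left unused.

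Counts were tested in R 4.3.3 with edgeR 4.0.16 (glmQLFit and glmQLFTest). Genes were kept by filterByExpr at its defaults, libraries were scaled by TMM, and the model held the group alone. P-values were adjusted by Benjamini-Hochberg over all tested genes, and log2 fold changes with an adjusted p of at most 0.05 were called. CPM values are TMM-scaled. One count stood for 0.0474 to 0.0644 CPM, and a count of 0 allows up to 3 counts, for counting error only. Ratios of counts used a pseudocount of 0.5 and log2 CPM for likeness 0.5. Exon lengths are unions of GENCODE M21 exons, joined by gene ID. Alternatives used DESeq2 1.42.0, limma 3.58.1 (voom), other size factors and filters, the replicate number as a block, GC content and length trends removed (97.5% of tested genes had both), and each library left out. The script was tested on simulated data. Named genes were the 10 members, Snhg1, pathway genes past the threshold or with the smallest p in their list, the 3 genes most like a called member, and genes overlapping a member. Itch, Traf1, Traf3, Map3k14, Tnip3 and the marker genes lie outside this rule and were named after their values were seen. The members and lists were chosen with earlier results of these data known.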

Additional observations from a re-analysis of the deposited data

How the results depend on the processing

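Over all genes, 350 passed with edgeR, against 646 with DESeq2, 163 with the replicate block and 160 with the replicate block and GC and length trends removed, and 123 to 807 with 1 library left out (807 without labelled replicate 1, 162 and 176 without labelled replicates 2 and 3, and 123, 151 and 143 without vector replicates 1, 2 and 3). Other alternatives gave 264 to 395, and the cause of these shifts was not tested. Of the 10 genes, 1 was higher with edgeR, 2 with DESeq2 (Tnfaip3 and Tnip1), 1 with the replicate block and 0 to 1 with 1 library left out. The value was 0 without vector replicate 1 or vector replicate 2. No fit called a member lower. Same-numbered libraries correlated at 0.029, -0.046 and -0.014 in their deviations from the group means, and differently numbered ones at -0.038 to 0.050. With 3 libraries per group these values cannot settle whether the replicate numbers pair the libraries. The block changed no call among the 10 genes. With 1 library left out, Tnip2 ran from -0.0051 to 0.13, Otulin from -0.10 to 0.031, Birc2 from -0.16 to 0.011 and Sharpin from -0.033 to 0.033 (log2). Tnip2 was also at -0.012 with GC and length trends removed, at -0.0083 with the replicate block in that fit, and Sharpin at 0.0019 with no filter. Birc3 to Birc2 and Tnfaip3 to Cyld ratios kept their sign, at 0.68 to 1.02 and 1.15 to 1.33 with 1 library left out. The alternatives for Spata2 and Traf2 were added after the data were seen. At 98.2 counts per library, Birc3 is the member whose precision is most limited by depth.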
